A study of Mus musculus with 16 samples.

Results

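Ryk, Ror1, Ror2, Ptk7, Vangl1 and Vangl2 are receptors and membrane proteins of non-canonical Wnt signaling, and all 6 were found by their symbols among the 55487 genes of the deposited count table. Their unique molecular identifiers (UMIs, each counting 1 captured RNA molecule) were followed over the 17 clusters that the authors annotated in 18203 cells of mouse spinal cord. The study asks what the loss of Ryk from astrocytes does after a lesion of the cervical dorsal columns. Each of 16 mice, 8 to 10 weeks old at surgery and of both sexes, gave 1 single-cell 3′ library from tissue around the lesion or from an uninjured cord. The knockout mice (Rykfl/fl,GFAPcreERT2; Ryk cKO) carried floxed Ryk alleles, and the controls (Ryk+/+,GFAPcreERT2; WT) carried the same tamoxifen-induced Cre under a GFAP promoter without floxed alleles. Of each genotype, 2 mice were taken uninjured, which the sample labels call Sham, and 2 at each time point, which were 1 d, 7 d, and 14 d past the lesion. WT 1 d replicate 2 had only 1 cell and was left out, so WT at 1 d was 1 mouse and was assumed to vary like the other groups. The other 15 mice had 208 to 1845 cells and 536263 to 9008729 UMIs each.

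Non-canonical Wnt signaling acts through the cytoskeleton and through cell polarity rather than through β-catenin. Wnt ligands such as Wnt5a bind Ryk, Ror1, Ror2, or Frizzled receptors at the cell surface, and Vangl proteins with Celsr, Prickle, and Dvl proteins form the core of planar cell polarity, which orients cells and growth cones within a tissue. In the nervous system, Ryk is best known from axon guidance, where growth cones that carry it turn away from sources of Wnt ligand.

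Ryk lies on chromosome 9 (102834917 to 102908305, plus strand, GRCm38), and 3585 UMIs in 2390 cells were assigned to it. Ror1 is on chromosome 4 (100095791 to 100444765, plus strand, 3413 UMIs in 1518 cells) and Ror2 on chromosome 13 (53109312 to 53286124, minus strand, 1191 UMIs in 716 cells). Ptk7 is on chromosome 17 (46564471 to 46629504, minus strand) and had the fewest UMIs, 492 in 405 cells. Vangl1 is on chromosome 3 (102153583 to 102204693, minus strand, 1290 UMIs in 985 cells) and Vangl2 on chromosome 1 (172000960 to 172028444, minus strand, 947 UMIs in 792 cells). Each gene was counted in all 15 mice. The deleted exon is not named in the sources used here and 3′ tags may lie outside it, so the counts of Ryk do not check the genotype labels.

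The replicate 1 libraries of both genotypes at 1 d and 7 d stand apart in depth and in barcodes. Their median was 414 to 548 UMIs per cell, against 1040.5 to 3637 in the other 11 mice. Any pair of these 4 libraries shared 28 to 115 cell barcodes, whereas no other pair of libraries shared more than 4. In all, 119 barcodes occurred in 2 or more of the 4 libraries, in 335 of their 5237 cells (6.40%), and 315 of 341 pairs of such cells (92.4%) were in the same cluster. Whether some of these cells were assigned to the wrong library was not tested. Such cells would come from a mouse of another genotype or time point. Values without these libraries are given beside the main comparisons. Without them no WT mouse was left at 1 d, so genotype was then compared over 7 d and 14 d, and injury over these time points and 1 d of cKO mice. The same conditions were also compared with all libraries kept, which tells the loss of the libraries from that of the time point; both were chosen after the data were seen. For 6 mice, all replicate 2, the cell names give another condition than the sample title and the deposited cell table. Among WT mice, the names read cKO uninjured for the uninjured mouse, WT 14 d for the mouse at 1 d, WT 1 d for that at 7 d, and cKO 14 d for that at 14 d. Among cKO mice, they read WT 7 d for the uninjured mouse and cKO 7 d for the mouse at 14 d. Titles were followed here, and the comparisons were repeated with the conditions of the cell names.

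Levels are given as CPM, the usual scaling of a gene's UMIs by all UMIs of the cells of a mouse in a cluster, and means ± SD are over mice with at least 10 cells there. Neighbours in an order of levels are said to differ beyond their spread where the mean difference within mice of log2(CPM + 20) exceeds the SD of that difference. Clusters had been made from the same counts, so no test is given between them. The markers of each annotated type were mostly highest in it, with 6 of 6 for astrocytes, 5 of 5 for endothelial cells, microglia, pericytes, and fibroblasts, 4 of 4 for Schwann, myeloid, and red blood cells, and 4 of 5 for neurons, oligodendrocytes, oligodendrocyte precursor cells (OPCs), and immune cells. The astrocyte markers were highest in Clusters 5 or 7, and Cluster 2, also annotated as astrocytes, went against its name. It had 17089 ± 8475 CPM of summed oligodendrocyte markers, Mbp the most abundant, against 7553 ± 2145 CPM of summed astrocyte markers (n = 11), and Mbp and Snap25, a neuron marker, were highest in it. It is therefore called by its number. Cluster 13, labelled unknown in the deposited table, was highest in 5 of 5 markers of ependymal cells. Pericytes had 11336 ± 1946 CPM of summed pericyte markers but also 5546 ± 1216 CPM of summed endothelial markers (n = 15), Flt1 the most abundant. The part of endothelial RNA in the levels of pericytes was not tested.

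**Figure D1:**
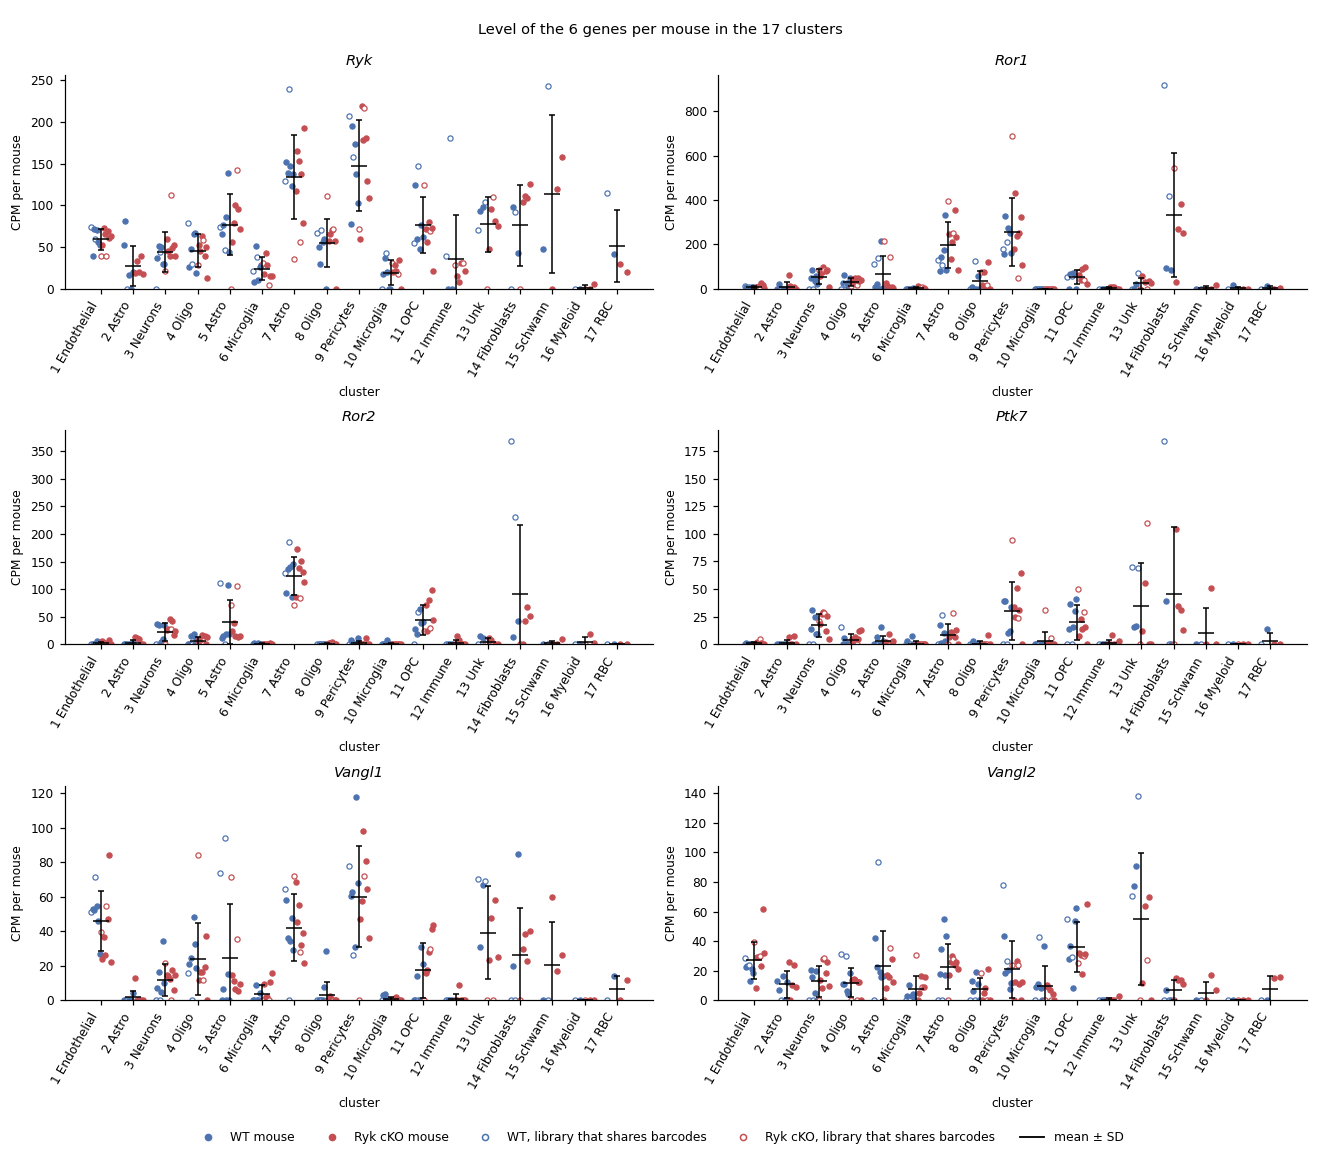
CPM of each gene (y axis, linear, 1 panel per gene) in the 17 clusters (x axis), with 1 point per mouse of at least 10 cells and the mean ± SD in black; open points are the 4 libraries that share barcodes. Ryk is highest in pericytes and Cluster 7 astrocytes, and Ror2 in Cluster 7. All open points lie above the other mice for Vangl1 in Cluster 5 and, from 416 against 383 CPM, for Ror1 in fibroblasts. For Ror2 in fibroblasts and Ror1 in Cluster 5 only the mean of the open points is higher. There, Ror2 has an open point at 0 CPM, and Ror1 has another mouse at 216 CPM.

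Ryk, an atypical receptor tyrosine kinase that binds Wnt ligands through a WIF domain, was counted in every cluster. It was highest in pericytes, at 148 ± 54.0 CPM (SD, n = 15 mice), and in Cluster 7 astrocytes, at 133 ± 50.4 CPM (n = 15). Schwann cells had 114 ± 95.0 CPM in 5 mice. Cluster 13 (77.3 ± 32.8 CPM, n = 10), Cluster 5 astrocytes (76.9 ± 36.7, n = 14), OPCs (76.4 ± 34.0, n = 14), and fibroblasts (75.9 ± 48.7, n = 9) formed a middle group with nearly equal means. Endothelial cells followed with 59.1 ± 12.3 CPM (n = 15), Cluster 8 oligodendrocytes with 54.8 ± 28.9 (n = 14), red blood cells with 51.6 ± 43.0 (n = 4), Cluster 4 oligodendrocytes with 45.6 ± 19.5 (n = 15), and neurons with 44.0 ± 24.1 (n = 15). The lowest levels were 35.6 ± 52.9 CPM in immune cells (n = 10), 27.3 ± 23.6 in Cluster 2 (n = 11), 24.3 ± 13.5 and 19.5 ± 14.8 in microglia of Clusters 6 and 10 (n = 14 each), and 1.27 ± 2.84 in myeloid cells (n = 5). Only 1 of the 16 pairs of neighbours in this order differed beyond its spread, Cluster 10 microglia over myeloid cells (log2 difference 0.69 ± 0.64, higher in 3 of 5 mice). Pericytes stood above 12 of the other 16 clusters beyond the spread; the 4 they did not exceed were Cluster 7, Schwann cells, OPCs, and fibroblasts.

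Shares of cells with a Ryk UMI are set beside that of myeloid cells, taken because their level was the lowest, since free RNA in droplets gives UMIs to cells that do not express a gene. Myeloid cells, at a median of 2212 UMIs per cell, had a Ryk UMI in 2 of 119 cells (1.68%, 95% exact binomial interval 0.204% to 5.94%). The share was 34.3% in Cluster 7 (median 2882 UMIs per cell) and 30.3% in pericytes (median 1420). After thinning to 1000 UMIs per cell, which left 8150 shallower cells out, the share was 11.8% in Cluster 7, 13.6% in pericytes, 6.55% in Cluster 5, and 2.13% in Cluster 10, against 1.14% in myeloid cells. Without the 4 libraries that share barcodes, pericytes stayed highest, while immune cells dropped to 12.7 CPM and red blood cells to 30.6 CPM.

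Ror1, a receptor of the Ror family that binds Wnt5a, was concentrated in 3 clusters. Its level was 332 ± 278 CPM in fibroblasts (n = 9), 255 ± 152 in pericytes (n = 15), and 198 ± 103 in Cluster 7 astrocytes (n = 15). Cluster 5 astrocytes had a mean of 64.9 ± 81.8 CPM (n = 14) but a median of 15.7 CPM. Neurons (55.1 ± 34.1 CPM), OPCs (53.8 ± 30.2), Cluster 8 (34.9 ± 46.3) and Cluster 4 (31.1 ± 17.3) oligodendrocytes, and Cluster 13 (24.4 ± 25.2) came next. The other clusters were low, with 9.40 ± 19.3 CPM in Cluster 2, 8.41 ± 6.25 in endothelial cells, 4.50 ± 6.63 in red blood cells, 3.82 ± 8.53 in Schwann cells, 3.13 ± 6.99 in myeloid cells, 2.39 ± 3.85 in immune cells, and 2.18 ± 4.13 in Cluster 6 microglia. No Ror1 UMI was found in 813 cells of Cluster 10, which allows a share of up to 0.369% of cells with a UMI, for counting error only. The step from Cluster 7 to Cluster 5 was the only 1 of 16 neighbouring pairs beyond its spread (log2 difference 1.81 ± 1.22, Cluster 7 higher in 13 of 14 mice). A Ror1 UMI was seen in 36.5% of the cells of Cluster 7 and 2.79% of those of Cluster 5, or 17.9% and 1.43% after thinning, against 0.532% in Cluster 6 microglia (median 780.5 UMIs per cell). This reference was picked from the same values. Myeloid cells, the reference for Ryk, had 1 Ror1 UMI in the uninjured mouse. Whether the share in Cluster 5 exceeds that from free RNA was not tested.

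The order of Ror1 at the top and its level in Cluster 5 rest on the shallow libraries. In fibroblasts, 3 of those libraries gave 416 to 918 CPM from 18 UMIs, and without them the mean was 185 ± 137 CPM (n = 6), below pericytes. In Cluster 5 the 4 libraries gave 110 to 214 CPM from 13 UMIs, and the other 10 mice had 30.1 ± 65.7 CPM. Of those 10, WT uninjured replicate 1 alone was high, at 216 CPM, and the others lay between 0 and 24.9 CPM.

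Ror2, the second Ror receptor for Wnt5a, had its highest level in Cluster 7 astrocytes, at 124 ± 34.2 CPM (n = 15). This cluster held 46.4% of all Ror2 UMIs in 5.56% of the cells. Fibroblasts had 90.5 ± 125 CPM (n = 9), or 36.0 CPM without the shallow libraries, OPCs 44.5 ± 27.0 (n = 14), Cluster 5 astrocytes 40.7 ± 40.2 (n = 14), and neurons 22.3 ± 15.96 (n = 15). Neurons lay above the next cluster, oligodendrocytes of Cluster 4 at 6.77 ± 7.32 CPM, beyond the spread (log2 difference 0.59 ± 0.55, higher in 11 of 15 mice), the only such neighbouring pair. The remaining 11 clusters had means of 0 (red blood cells) to 4.71 CPM (Cluster 13). In contrast to Ryk and Ror1, pericytes were near 0, at 2.37 ± 4.31 CPM with 11 of 15 mice at 0. Cluster 7 exceeded 15 of the other 16 clusters beyond the spread, all but fibroblasts. A Ror2 UMI was present in 27.1% of the cells of Cluster 7 and 3.07% of those of Cluster 5, or 13.1% and 1.88% after thinning, against 0.492% in Cluster 10 microglia (median 1119 UMIs per cell). This reference was picked from the same values and differs from those of Ryk and Ror1. Myeloid cells, the reference for Ryk, had 2 Ror2 UMIs in 4 injured mice, in a cluster of 119 cells. Whether the share in Cluster 5 exceeds that from free RNA was not tested.

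Ptk7, a catalytically inactive receptor that takes part in planar cell polarity, was sparse. Fibroblasts had 45.2 ± 61.4 CPM (n = 9), where WT 1 d replicate 1 had 184 CPM from 1 UMI. Without this mouse pericytes were highest, and without all shallow libraries fibroblasts had 37.2 CPM (n = 6). Cluster 13 had 34.8 ± 38.4 (n = 10), or 16.6 without the shallow libraries, and pericytes had 30.5 ± 26.0 (n = 15). OPCs followed with 19.9 ± 15.9 CPM and neurons with 17.2 ± 10.7, which held 40.0% of all Ptk7 UMIs. Schwann cells had 10.2 ± 22.8 CPM and Cluster 7 astrocytes 8.97 ± 9.22. The other 10 clusters lay between 0 and 4.26 CPM, with Cluster 5 astrocytes at 3.00. No neighbouring pair differed beyond its spread, and fibroblasts exceeded only 3 of the other 16 clusters. The level in OPCs was above that in Cluster 4 oligodendrocytes in 11 of 14 mice, but the mean log2 difference of 0.67 was smaller than its SD of 0.80.

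Vangl1, a membrane protein of the planar cell polarity core, was highest in pericytes, endothelial cells, and 1 of the astrocyte clusters. Pericytes had 60.0 ± 29.5 CPM (n = 15), endothelial cells 46.0 ± 17.6 (n = 15), Cluster 7 astrocytes 42.1 ± 19.6 (n = 15), and Cluster 13 39.2 ± 27.1 (n = 10). Endothelial cells, the largest cluster, held 35.7% of all Vangl1 UMIs. Fibroblasts (26.1 ± 27.2 CPM, or 39.2 without the shallow libraries), Cluster 5 (24.5 ± 31.6), Cluster 4 (23.9 ± 21.0), Schwann cells (20.6 ± 24.7), OPCs (17.2 ± 15.8), and neurons (11.5 ± 9.25) came next, and the other 7 clusters were at 0 to 6.49 CPM. The level in Cluster 5 dropped to 6.86 ± 5.80 CPM over the 10 mice without the shallow libraries. No neighbours in the order differed beyond their spread, but the 2 oligodendrocyte clusters did (Cluster 4 over Cluster 8, log2 difference 0.83 ± 0.70, higher in 11 of 14 mice). No Vangl1 or Vangl2 UMI was found in the 119 myeloid cells, which allows a share of up to 2.52% of cells with a UMI for each, against 16.1% of pericytes with a Vangl1 UMI.

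Vangl2, the other Vangl protein of vertebrates and a direct partner of Prickle and Dvl proteins, had a different order. It was at 54.9 ± 44.5 CPM in Cluster 13 (n = 10), 35.9 ± 16.8 in OPCs (n = 14), and 26.9 ± 12.3 in endothelial cells (n = 15). Clusters 5 and 7 did not differ in it beyond their spread (23.3 ± 23.4 and 22.7 ± 15.4 CPM, log2 difference 0.01 ± 0.84, Cluster 7 higher in 8 of 14 mice). Without the shallow libraries their means were 19.6 CPM (n = 10) and 28.3 CPM (n = 11). Pericytes had 21.0 ± 19.3 CPM, neurons 12.8 ± 10.4, Cluster 4 11.9 ± 9.61, and Cluster 2 10.6 ± 8.92, and the other 8 clusters were between 0 and 9.83 CPM. No neighbouring pair differed beyond its spread. Within the oligodendrocyte lineage, OPCs exceeded Cluster 4 beyond the spread for Vangl2 (log2 difference 0.81 ± 0.59) and for Ror2 (1.16 ± 0.56), each in 13 of 14 mice.

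The clusters annotated as astrocytes differed among themselves in Ryk, Ror1, Ror2, Vangl1, and Vangl2. Within mice, Cluster 7 exceeded Cluster 5 by a log2 difference of 0.75 ± 0.73 for Ryk (12 of 14 mice), 1.81 ± 1.22 for Ror1 (13 of 14), and 1.46 ± 1.12 for Ror2 (12 of 14). Cluster 7 also exceeded Cluster 2, by 2.02 ± 0.82 for Ryk, 2.77 ± 0.78 for Ror1, and 2.69 ± 0.45 for Ror2 in 11 of 11 mice each, by 1.38 ± 0.55 for Vangl1 in 10 of 11, and by 0.57 ± 0.51 for Vangl2 in 9 of 11. Cluster 5 exceeded Cluster 2 beyond the spread for Ryk (1.16 ± 0.82) and Ror2 (0.82 ± 0.68), each in 10 of 11 mice, but not for Ror1 (0.63 ± 1.37), Vangl1 (0.50 ± 0.74), or Vangl2 (0.54 ± 0.80). Depth, mitochondrial content, the nuclear RNA Malat1, and markers of oligodendrocytes moved with these differences. Cluster 7 had a median of 2882 UMIs per cell and 3.42% mitochondrial UMIs, against 1377 and 10.7% in Cluster 5 and 834 and 11.3% in Cluster 2. Malat1 had a mean of 34086 CPM in Cluster 7, whereas Cluster 5 had 14650 and Cluster 2 had 5439. The summed oligodendrocyte markers ran the other way, with 1880 ± 656 CPM in Cluster 7 and 10115 ± 6342 in Cluster 5, while Cluster 2 had 17089 ± 8475, and Mbp was the most abundant in each. Over all 14613 genes compared the median log2 difference of Cluster 7 from Cluster 5 was 0.03, but it was 0.44 over the 2519 genes that span 100 kb or more, a size that Ror1 (349 kb) and Ror2 (176.8 kb) also reach. The part of RNA quality, of RNA from oligodendrocytes, and of gene span in these differences was not tested.

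Across the 17 clusters, likeness was measured as Pearson's r of log2(mean CPM + 20) against 14612 genes, a description in which all points share the same libraries. The genes most like Ryk were Zbtb20 (r = 0.877), Asap2 (0.874), Nprl3 (0.865), Sec24a (0.859), and Tlk2 (0.853). Ror1 was most like Hoxa3 (0.916), Arhgef25 (0.909), Gm30624 (0.908), Zfp9 (0.907), and Ltbp1 (0.902), and Ror2 most like Gm16364.1 (0.959), Sulf1 (0.948), Cers1 (0.947), F3 (0.919), and Echdc2 (0.917). For Ptk7 the list was Pde1a (0.958), Rai2 (0.903), Bicc1 (0.898), Zbtb7c (0.896), and Gm26903 (0.889). Zbtb20 (0.893) and Nprl3 (0.886) returned for Vangl1, with Yap1 (0.879), Nbeal1 (0.870), and Wwtr1 (0.866), and Vangl2 was most like Gm16008 (0.901), Ankrd6 (0.896), Gm16386 (0.867), Grk4 (0.864), and Zfp606 (0.856). Yap1 and Wwtr1 encode the transcriptional coactivators of the Hippo pathway, and Ankrd6 (Diversin) is itself a component of planar cell polarity. Among the 6 genes, Ryk and Vangl1 had the highest r (0.805 over 17 clusters), Ror1 and Ror2 had 0.741, and Ror2 and Vangl2 had the lowest (0.275).

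Ryk was compared between genotypes in the cells annotated as astrocytes, Clusters 2, 5, and 7 together, with the limit that these 3′ counts cannot show whether the deleted part was lost. It was at 101 CPM (lowest), 108 CPM (median), and 157 CPM (highest) in the 5 injured WT mice, and at 23.0, 104, and 123 CPM in the 6 injured cKO mice. The groups overlapped, with 3 of 6 cKO mice below all WT mice: both at 1 d, at 23.0 CPM (1 UMI) and 69.0 CPM, and replicate 1 at 7 d, at 90.1 CPM. The mean log2 fold change of cKO against WT over the 3 time points was −0.20 (SE 0.37, adjusted p = 1.0 by the quasi-likelihood test of edgeR, Benjamini-Hochberg adjusted). Over 7 d and 14 d it was −0.05 with all libraries and 0.08 without the 4 that share barcodes. In Clusters 5 and 7 without Cluster 2 it was −0.15. The percentage of these cells that belonged to Cluster 7 ran from 15.5% to 61.8% between the injured mice, and its part in the value was not tested.

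Within Cluster 7 alone, Ryk was at 123 and 138 CPM in the uninjured WT mice, replicates 1 and 2, and at 78.3 and 192 CPM in the uninjured cKO mice. At 1 d the WT mouse had 129 CPM and the cKO mice 36.1 CPM (1 UMI) and 117 CPM. At 7 d, WT mice had 239 CPM (9 UMIs) and 147 CPM, and cKO mice 56.1 CPM (2 UMIs) and 138 CPM. The lowest and the highest of these values all came from shallow libraries. At 14 d, when no shallow library entered, WT mice had 152 and 139 CPM and cKO mice 165 and 153 CPM, so that the cKO mice were slightly above the WT mice. The log2 fold change of cKO against WT over injury was −0.11 in Cluster 7 (SE 0.36), 0.33 in Cluster 5 (SE 0.58), −0.28 in pericytes (SE 0.33), −0.12 in endothelial cells (SE 0.25), and 0.21 in OPCs (SE 0.57), each smaller than its standard error and none called by edgeR. In this order, the values over 7 d and 14 d were −0.15, 0.43, 0.31, 0.05, and −0.24 with all libraries, so that 3 of the 5 turned, and −0.0025, 0.27, 0.25, 0.12, and 0.04 without the 4 libraries.

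**Figure D2:**
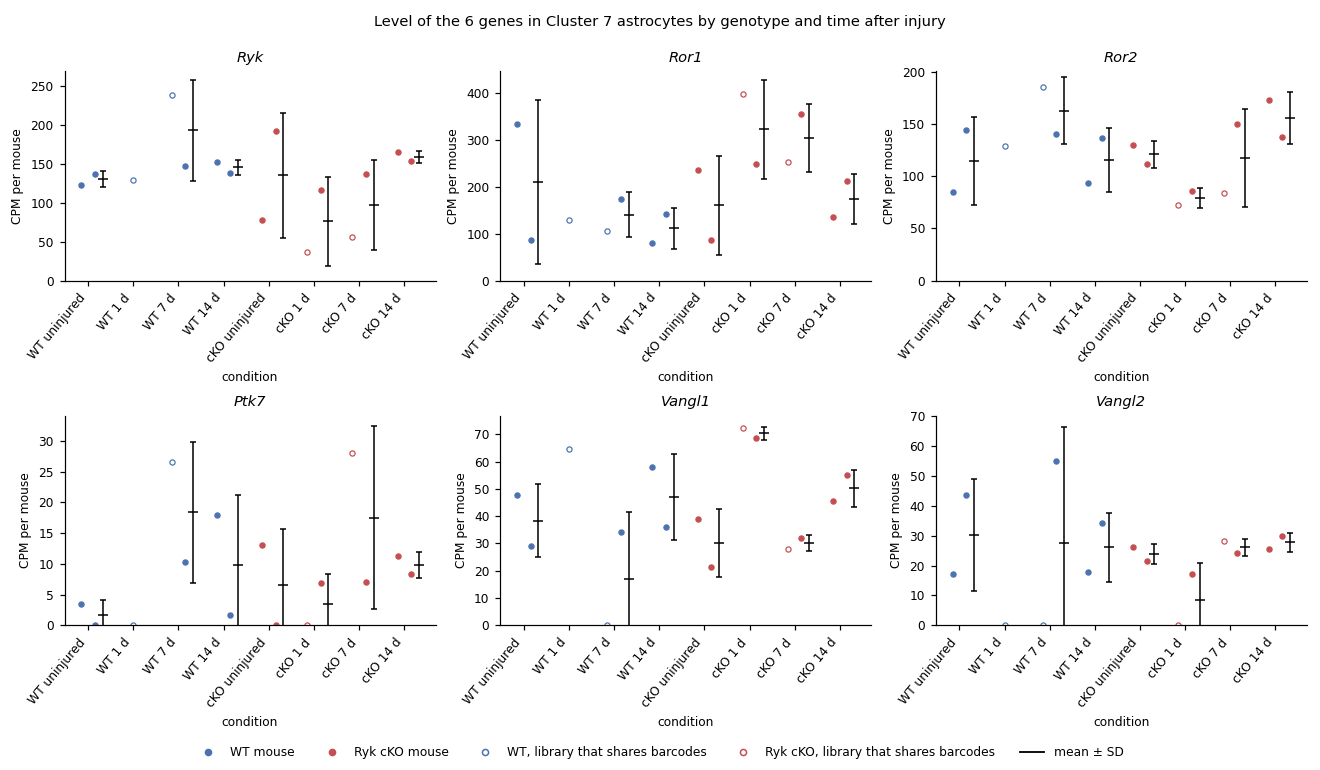
CPM of each gene in Cluster 7 astrocytes (y axis, linear, 1 panel per gene) by genotype and time after injury (x axis), with 1 point per mouse and the mean ± SD of conditions with 2 mice in black; open points are the 4 libraries that share barcodes. Ror1 lies between 80.5 and 175 CPM in injured WT mice and between 136 and 397 CPM in injured cKO mice, and Ryk is at 139 to 165 CPM in all 4 mice at 14 d.

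Ror1 in Cluster 7 had the lowest p between genotypes among all pairs of a member and a class that edgeR tested. Injured WT mice had 129 CPM at 1 d, 106 and 175 CPM at 7 d, and 80.5 and 142 CPM at 14 d. Injured cKO mice had 397 and 247 CPM at 1 d, 252 and 355 CPM at 7 d, and 136 and 211 CPM at 14 d. The cKO mice were higher than the WT mice at 1 d and 7 d, and at 14 d the ranges overlapped, with cKO replicate 1 below WT replicate 2. Between mice of the same replicate number, which stands for a batch, the cKO mouse was higher in every injured pair, including both pairs at 14 d, and lower in both uninjured pairs. The uninjured mice spread as widely within a genotype, with 334 and 86.9 CPM in WT and 235 and 85.5 CPM in cKO, replicate 1 being the high one in both. Means were 266 ± 95.1 CPM in injured cKO and 127 ± 35.8 CPM in injured WT, a log2 fold change of 1.00 (SE 0.35, adjusted p = 0.861 by edgeR with Benjamini-Hochberg adjustment), which does not pass the threshold of 0.05. With the replicate number as a block it was 1.00 (adjusted p = 0.623 by edgeR). Permuting the genotype within time points, in an exact two-sided test without the block, gave a difference of 0.92 in log2(CPM + 20) with p = 0.0185 (adjusted p = 0.704 over 95 pairs of a gene and a class), where 108 arrangements allow no p below 0.00926. The fold change over 7 d and 14 d was 0.80 with all libraries and 0.79 without the 4 libraries. With the conditions of the cell names it was 1.04 and was called (adjusted p = 0.0439 by edgeR), where the adjusted p under all other alternatives lay between 0.321 and 1.0.

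Over all classes, 66 pairs of a member and a class were open to the comparison of cKO against WT over injury, and 37 passed edgeR's filter on low counts. None of the 37 was called by edgeR or DESeq2, against 1 of all 87033 tests by edgeR (0.00115%) and 1 by DESeq2. With the replicate number as a block, edgeR called 7 genes in all and 0 members. The gene called in the unblocked comparison, Kcnj3 in Cluster 7, encodes a potassium channel subunit and is named here after its values were seen. At an unadjusted p under 0.05, edgeR had 3 member pairs of 37, against 3.17% of all tests, and DESeq2 had 1, against 729 of 87033 tests. Higher values in cKO were found in 23 of the 37, with a median log2 fold change of 0.25 against 0.18 over all tests.

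With each time point taken alone, edgeR had 0 of 37 member pairs at an unadjusted p under 0.05 for genotype in uninjured mice (3.22% of all tests), 0 at 1 d (3.75%), 3 at 7 d (1.75%), and 1 at 14 d (1.46%). DESeq2 had 1 at 7 d, against 406 of 91795 tests, and 0 at the others. At 7 d, Ror1 in endothelial cells was at 5.95 (1 UMI) and 2.19 CPM in WT and at 4.95 (1 UMI) and 26.4 CPM in cKO mice, so that cKO replicate 2 alone was high. Ror2 in neurons was at 0 and 4.98 CPM in WT and at 28.2 (1 UMI) and 42.4 CPM in cKO mice at 7 d, and the third pair was Ror1 in Cluster 7. At 14 d, Vangl1 in endothelial cells was at 52.9 and 52.2 CPM in WT and at 36.9 and 26.3 CPM in cKO mice. The uninjured mice spanned 22.0 to 84.5 CPM for this pair. The log2 fold changes were 2.68, 3.03, 1.00, and −0.80 in this order, each with an adjusted p of 1.0 by edgeR, and differences between time points were not tested. Without the 4 libraries, with 1 mouse of each genotype at 7 d, the 7 d values were 3.55, 3.00, and 0.98.

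Over 7 d and 14 d together with all libraries, edgeR had 4 of 37 member pairs at an unadjusted p under 0.05, against 1.75% of all tests. They were Ror1 in endothelial cells (log2 fold change 1.98), neurons, and Cluster 7, and Ror2 in neurons (1.61). Without the 4 libraries there were 4 of 38, against 1.95% of all tests, namely Ror1 in endothelial cells (2.44) and Cluster 7, Ror2 in neurons (1.59), and Ror1 in oligodendrocytes of Cluster 8, where 1 UMI was found in the 3 WT mice. The adjusted p was 1.0 by edgeR for each of these.

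The other pairs at that level were Ptk7 in pericytes and Ror1 in neurons, in both of which 2 WT mice had no UMI. Ptk7 in pericytes was at 0 CPM at 1 d, 0 and 10.2 CPM at 7 d, and 39.0 and 39.5 CPM at 14 d in WT, and at 94.7 (4 UMIs), 33.5, 24.1 (1 UMI), 31.0, 24.7, and 50.7 CPM in cKO mice in the same order of time. The genotypes overlapped, since both WT mice at 14 d lay within the cKO range. The fitted log2 fold change was 2.67 (SE 1.25, adjusted p = 1.0 by edgeR), but the WT group at 1 d was at 0, so this value depends on the prior count and is no bound. Over 7 d and 14 d it was 0.83 with all libraries and 0.72 without the 4 libraries. Ror1 in neurons was at 0 CPM at 1 d, 0 and 37.3 CPM at 7 d, and 47.4 and 83.4 CPM at 14 d in WT, and at 57.2 CPM (lowest), 82.4 CPM (median), and 97.7 CPM (highest) in the 6 injured cKO mice. Both WT zeros came from shallow libraries, with 18 neurons at 1 d and 57 at 7 d. The fitted value of 3.22 (SE 1.57, adjusted p = 0.769 by edgeR) again depends on the prior count and stands beside a median of 2.01 over all 10238 genes of neurons. With 1 d left out the value was 0.83 with all libraries and 0.75 without the 4 libraries.

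For the other members, the log2 fold change of cKO against WT over injury in Clusters 2, 5, and 7 was 0.80 for Ror1 (SE 0.56), −0.14 for Ror2 (SE 0.32), and −0.07 for Vangl1 (SE 0.43). Vangl2 had 1.66 (SE 1.51), a value that depends on the prior count because the WT mouse at 1 d had 0 UMIs. Over 7 d and 14 d the values of Ror1, Ror2, Vangl1, and Vangl2 were 0.84, 0.30, 0.18, and −0.39 with all libraries, and 0.89, 0.36, 0.20, and −0.53 without the 4 libraries, so that all but Ror1 turned in both. Ptk7 did not pass the filter there, with 0 to 15.7 CPM in injured WT and 0 to 15.01 CPM in injured cKO mice. None of the members was called in these clusters by edgeR or DESeq2, where edgeR called 0 of 11769 genes (0%) and DESeq2 called 1 gene; 265 genes and 0 members had an unadjusted p under 0.05 by edgeR.

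Injury was read as the mean of the injured conditions against the uninjured ones over both genotypes. Ryk in Clusters 2, 5, and 7 together was at 54.0 CPM (lowest), 75.6 CPM (median), and 123 CPM (highest) in the 4 uninjured mice and at 23.0, 108, and 157 CPM in the 11 injured mice. The groups overlapped, with the lowest and the highest value both in injured mice, and the means were higher after injury in both genotypes, at 88.4 and 117 CPM in WT and 75.6 and 90.9 CPM in cKO mice. The fitted log2 fold change, −0.08 (SE 0.32, adjusted p = 0.992 by edgeR with Benjamini-Hochberg adjustment), has the opposite sign to these means and is far smaller than its error. It turned to 0.07 without the 4 libraries, against −0.03 in the same conditions with all libraries. It also turned to 0.12 with the conditions of the cell names, to 0.34 without cKO uninjured replicate 2, and to 0.04 without WT uninjured replicate 1, and it was −0.14 in Clusters 5 and 7 without Cluster 2. In all 3 clusters the value was −0.13 for Ror1 (SE 0.51), 0.15 for Ror2 (SE 0.29), 0.52 for Vangl1 (SE 0.41), and −1.01 for Vangl2 (SE 0.82). The value of Vangl2 depends on the prior count, since the WT mouse at 1 d had 0 UMIs, and it turned to 0.14 without the 4 libraries, to 0.10 in the same conditions with all libraries, and to 0.12 with the conditions of the cell names. Without the 4 libraries Ror1, Ror2, and Vangl1 had −0.12, 0.13, and 0.32. The mean CPM of Vangl2 was higher after injury in both genotypes, opposite in sign to the fitted −1.01. It was 18.3 CPM uninjured and 25.002 CPM injured in WT, and 17.8 and 21.2 CPM in cKO mice.

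Ror1 in these 3 clusters differed more between uninjured replicates than between uninjured and injured mice. Replicate 1 had 306 CPM in WT and 209 CPM in cKO, and replicate 2 had 17.5 and 23.0 CPM. The 11 injured mice, at 40.7 to 322 CPM, lay between and slightly above these. The percentage of their cells that belonged to Cluster 7 was 66.2% and 62.5% in replicate 1, against 8.95% and 12.04% in replicate 2, and its part in the difference was not tested. Without WT uninjured replicate 1 the log2 fold change of Ror1 with injury was 1.19, and without cKO uninjured replicate 1 it was 0.56.

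Of the 37 member pairs that passed the filter, 0 were called for injured against uninjured mice by edgeR, against 56 of 87033 tests (0.0643%). Among the 56 was Xist in Cluster 7 (log2 fold change −4.54), named here after its values were seen. Sex did not enter the fits, and its balance between injured and uninjured mice was not tested. At an unadjusted p under 0.05, edgeR had 0 members, against 6.88% of all tests, and DESeq2 had 0, against 3174 of 87033 tests. DESeq2 called 0 members and 146 genes in all. Values were higher after injury in 16 of the 37, with a median log2 fold change of −0.08 against −0.10 over all tests. By time point, edgeR called 0 members at 1 d against 40 of 87033 tests (0.0460%), 0 at 7 d against 53 of 91795 (0.0577%), and 0 at 14 d against 146 of 91795 (0.159%), and DESeq2 called 0 members at each. The members at an unadjusted p under 0.05 by edgeR were 1 at 1 d, 0 at 7 d, and 1 at 14 d, against 6.49%, 6.86%, and 7.22% of all tests. At 1 d this was Vangl2 in Clusters 2, 5, and 7 (log2 fold change −3.67, adjusted p = 0.812 by edgeR), where 13 UMIs of cKO replicate 2 were the only ones in 3 mice, so that this value depends on the prior count and is no bound. At 14 d it was Ror1 in neurons (0.82, adjusted p = 0.341 by edgeR), at 47.4 to 97.7 CPM in the 4 mice against 9.83 to 86.6 CPM in the uninjured mice, ranges that overlap.

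Exact two-sided permutation over mice needs no filter on low counts, but these few mice leave it little room for a call, so its values are a description. The smallest p it can give is 0.00926 for genotype, where at least 18 of 95 pairs would have to reach it for an adjusted p under 0.05. For injury it is 0.00170, where at least 3 of 71 pairs would have to. At an unadjusted p under 0.05 there were 6 of 95 pairs for genotype and 6 of 71 for injury, with lowest adjusted p of 0.704 and 0.563. No share over all genes is given for this permutation, so these counts cannot be set against a background. For injury, Ryk in Cluster 10 microglia was at 0 CPM in all 3 uninjured mice and at 0 to 42.8 CPM in the 11 injured mice, 10 of which had a UMI. The uninjured mice had 13, 28, and 16 cells of this cluster, and all genes together had a median log2 fold change of 1.02 there by edgeR. In Cluster 8 oligodendrocytes Ryk was at 0, 0, and 59.2 CPM in uninjured mice and at 30.0 to 111 CPM in injured mice. The differences in log2(CPM + 20) were 1.10 (p = 0.0204 by exact permutation) and 1.53 (p = 0.0272 by exact permutation), both with an adjusted p of 0.563. Vangl2 in OPCs had 53.5, 62.1, and 65.1 CPM in the uninjured mice, from 13 UMIs together, 3 of them in the cKO mouse at 65.1 CPM. The median was 29.7 CPM in the injured mice, of which 1 of 11, WT 1 d replicate 1 at 55.2 CPM from 1 UMI, reached the uninjured range. The difference for Vangl2 in OPCs was −0.76 (p = 0.0136 by exact permutation, adjusted p 0.563). For genotype, Vangl1 in endothelial cells was at 51.2 to 71.4 CPM in the 5 injured WT mice and at 24.0 to 54.5 CPM in the 6 injured cKO mice, a difference of −0.40 (p = 0.0278 by exact permutation, adjusted p 0.704). Uninjured mice spread more widely within cKO, at 22.0 and 84.5 CPM, and had 27.0 and 45.7 CPM in WT. Without the 4 libraries these differences were 1.18 for Ryk in Cluster 10, 1.37 for Ryk in Cluster 8, −0.86 for Vangl2 in OPCs, and, over 7 d and 14 d, −0.33 for Vangl1 in endothelial cells.

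The other pairs at that level follow. For genotype, apart from Ror1 in Cluster 7 and in neurons (1.38, p = 0.0185 by exact permutation), Vangl2 in Cluster 13 was at 70.2 (1 UMI) to 138 CPM in 4 injured WT mice and at 0 to 69.9 CPM in 5 injured cKO mice, a difference of −1.14 (p = 0.0370 by exact permutation, the smallest its 27 arrangements can give). These groups did not overlap, but the lowest WT and the highest cKO value nearly met. Vangl1 in OPCs had a UMI in 1 of 5 injured WT mice, at 13.7 CPM, and was at 0 to 41.5 CPM in the 6 injured cKO mice (0.87, p = 0.0370 by exact permutation). Ptk7 in endothelial cells had at most 3 UMIs in any mouse (0.10, p = 0.0463 by exact permutation). For injury, Vangl1 in OPCs was at 20.7, 30.5, and 43.4 CPM in uninjured mice and at 0 to 41.5 CPM in injured mice (−0.85, p = 0.0476 by exact permutation), so the groups overlapped. Vangl1 in Cluster 8 was at 0, 7.40, and 28.5 CPM in uninjured mice and had 1 UMI in all injured mice together (−0.42, p = 0.0476 by exact permutation). Vangl2 in pericytes was at 0 to 12.03 CPM in uninjured and 0 to 77.6 CPM in injured mice, which also overlap (0.66, p = 0.0442 by exact permutation). The adjusted p was 0.733 for Ptk7 in endothelial cells, 0.704 for the other genotype pairs, and 0.563 for the injury pairs. Without the 4 libraries the genotype differences, over 7 d and 14 d, were 0.76 for Ror1 in Cluster 7, 0.58 for Ror1 in neurons, 1.16 for Vangl1 in OPCs, and 0.07 for Ptk7 in endothelial cells, and Vangl2 in Cluster 13 had too few mice. Those for injury were −0.72 for Vangl1 in OPCs, −0.41 for Vangl1 in Cluster 8, and 0.47 for Vangl2 in pericytes.

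Other genes of the pathway were read in Clusters 2, 5, and 7 from 4 lists, and no list had a gene called by edgeR or DESeq2 or at an unadjusted p under 0.05 by edgeR, for genotype over injury or for injury. At that level edgeR had 265 of all 11769 genes for genotype and 698 for injury. Ligands come first, of which 5 of 6 passed the filter. For genotype 3 were higher and 2 lower in cKO, from Wnt5b (2.21) to Wnt4 (−0.63), with a median log2 fold change of 0.10 against 0.15 over all genes. Wnt5b was without a UMI in the WT mouse of 1 d, so its value depends on the prior count, and over 7 d and 14 d it was −0.10 with all libraries and −0.15 without the 4 libraries. The value of Wnt4 turned to 0.49 without WT 7 d replicate 1. For injury 3 were higher and 2 lower, from Wnt4 (2.71) to Wnt7a (−0.44), with a median of 0.52 against −0.18 over all genes. Wnt4 rests on few molecules, with 1 UMI in the 4 uninjured mice together and 0 to 4 in each injured mouse.

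The core of planar cell polarity, which includes Celsr, Frizzled, Prickle, and Dvl proteins, had 9 of 13 genes past the filter. For genotype 4 were higher and 5 lower (median −0.05), from Fzd6 (1.46) to Dvl1 (−0.41). No UMI of Fzd6 came from WT 1 d replicate 1 or WT 7 d replicate 1, so its value depends on the prior count, and it was 0.068 with the conditions of the cell names, 0.45 by DESeq2, 3.00 without WT 7 d replicate 2, and −0.35 over 7 d and 14 d with all libraries. For injury 4 were higher and 5 lower (median −0.06), from Dvl3 (0.33) to Scrib (−0.69), a scaffold protein of cell polarity. Scrib moved to −1.64 without WT 7 d replicate 2, −1.56 without cKO 7 d replicate 2, and −0.15 without WT uninjured replicate 2, and Dvl3 to −0.74 without cKO 1 d replicate 2 and 3.29 without cKO uninjured replicate 2. All 10 effectors, which carry the signal to the cytoskeleton through Daam proteins, small GTPases, and kinases, passed the filter. For genotype 5 were higher and 5 lower (median 0.03), from Daam1 (0.43) to Daam2 (−0.22), and for injury 6 were higher and 4 lower (median 0.08), from Daam1 (0.47) to Rac1 (−0.51). The 6 genes of Vangl and Ryk traffic and turnover had 2 higher and 4 lower in both comparisons. Medians were −0.06 for genotype, where Gipc1 was lowest (−0.46), and −0.09 for injury, where Sec24b was highest (0.39). Single clusters were also read, but differences between them were not tested. For genotype, the traffic and turnover list had 5 higher and 1 lower in Cluster 7 (median 0.44), and 2 higher and 3 lower in Cluster 5 (median −0.50). Of the ligands, 2 were higher and 2 lower in Cluster 7 (median 0.33), and all 3 higher in Cluster 5 (median 1.65). In Cluster 5 they ran from Wnt7a (1.70) to Wnt7b (0.10), with Wnt5b between them. Since WT 1 d replicate 1 had no Wnt5b UMI, this median depends on the prior count. The core had 4 higher and 3 lower in Cluster 7 (median 0.24), and 1 higher and 5 lower in Cluster 5 (median −0.26). The effectors had 7 higher and 3 lower in Cluster 7 (median 0.21), and 5 higher and 5 lower in Cluster 5 (median 0.03). Genotype medians over all genes were 0.18 in Cluster 7 and 0.30 in Cluster 5. The genotype values over 7 d and 14 d of Dvl1, Daam2, and Gipc1 were −0.10, 0.13, and 0.73 with all libraries and 0.07, 0.05, and 0.80 without the 4 libraries. The value of Gipc1 was −2.09 without cKO 1 d replicate 2, which leaves a mouse with 0 UMIs at 1 d in cKO.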

How the data were processed

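The authors aligned reads with Cell Ranger to mm10 (GRCm38), filtered cells by their mitochondrial percent and number of genes, corrected for batch with Harmony, and clustered them (Seurat, R 4.1.2; from the submitters' processing notes and the methods). They deposited raw counts of UMIs and, for each cell, the cluster, the batch, and the mitochondrial percent. Clusters and names are the authors'. Doublets were neither called nor removed here, and free RNA was not removed. Gene positions are those of a GENCODE annotation of GRCm38, matched by symbol.

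UMIs were summed per mouse and class (at least 10 cells) and tested with edgeR 4.0.16 in R 4.3.3 (TMM scaling, the filterByExpr filter, and a quasi-likelihood model with 1 mean for each condition). P-values were Benjamini-Hochberg adjusted over the genes of a class, with a threshold of 0.05. DESeq2 1.42.0 was the alternative tool. A class was fitted with at least 4 residual degrees of freedom and every condition of the contrast present. Exact permutations, levels, and figures used Python 3.11.15, numpy 2.4.6, pandas 2.3.3, scipy 1.17.1, and matplotlib 3.10.9, with 20 CPM added before log2. The fits were tested on simulated data. Intervals are exact binomial (95%), and they and limits for a count of 0 (3 counts) cover counting error only.

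The members and lists were chosen with earlier results of these data known. Named genes are the members, the highest and lowest value of each list, and, per member, the 5 most alike among genes with at least 200 UMIs; an item that this rule names is not reported here. The deposited batch equals the replicate number in 16 of 16 mice, so the numbers pair mice by batch; deviations from the group means correlated between conditions at a median r of 0.143 for Clusters 2, 5, and 7, and 12 of 21 such correlations exceeded 0.1. Alternatives were the other tool, no filter, at least 30 cells, the replicate block, the animal number series, the conditions of the cell names, cells thinned to 1000 UMIs, 5 or 50 CPM added, means over cells, Clusters 5 and 7 without Cluster 2, WT mice alone, and each mouse left out; leaving out cells with a shared barcode, the 4 libraries (and with them WT at 1 d), or only the conditions lost with them, was chosen after seeing the data.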

Additional observations from a re-analysis of the deposited data

How the results depend on the processing

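Members called stayed at 0 of the pairs tested by edgeR under 23 of 24 alternatives for genotype and 24 of 24 for injury; the exception was 1 with the conditions of the cell names, Ror1 in Cluster 7 (1.04, adjusted p = 0.0439 by edgeR; 0.321 to 1.0 under the others). DESeq2 called 0 members. The 6 differences in log2(CPM + 20) between the highest cluster and the next moved by less than 1 SD in 132 alternatives, but that spread is wide and 4 of them changed sign: Ryk (−0.033 to 0.47), Ror1 (−0.69 to 0.17), Ptk7 (−0.70 to 0.99), and Vangl2 (−0.10 to 0.80). The highest cluster changed for Ror1, to pericytes (after thinning, without the 4 libraries, and without WT 1 d replicate 1), and for Ptk7, to pericytes (after thinning, without cells of a shared barcode, and without WT 1 d replicate 1) or Cluster 13 (at least 30 cells). Of 617 alternatives on 27 single-gene fold changes, 574 kept direction and side of the threshold and 42 turned direction. The causes were not tested beyond the values given here.

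Genes called for genotype (1) were 65 without a filter, 3 with at least 30 cells, 7 with the replicate block, 8 with the animal number series, 21 with the cell names, 0 after thinning, 2 without cells of a shared barcode, 20 without the 4 libraries, 9 over the same conditions (7 d and 14 d) with all libraries, and 0 (without cKO 1 d replicate 2) to 7 (without WT 14 d replicate 1) with 1 mouse left out. For injury (56) they were 146 by DESeq2, 479 without a filter, 19 with at least 30 cells, 70 with the replicate block, 880 with the animal number series, 11 with the cell names, 3 after thinning, 27 without the 4 libraries, and 2 (without WT uninjured replicate 2) to 520 (without WT uninjured replicate 1) with 1 mouse left out; cKO uninjured replicate 2 gave 4, cKO uninjured replicate 1 gave 95, cKO 1 d replicate 2 gave 99, WT 14 d replicate 1 gave 86, and WT 7 d replicate 1 gave 31.

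In Clusters 2, 5, and 7, genotype values turned without the 4 libraries to 0.077 (Ryk), 0.36 (Ror2), 0.20 (Vangl1), −0.53 (Vangl2), 0.067 (Dvl1), −0.15 (Wnt5b), 0.049 (Daam2), and 0.80 (Gipc1). That comparison also lacks 1 d, and over 7 d and 14 d with all libraries values turned to 0.30 (Ror2), 0.18 (Vangl1), −0.39 (Vangl2), −0.35 (Fzd6), −0.10 (Wnt5b), 0.13 (Daam2), and 0.73 (Gipc1), while Ryk (−0.053) and Dvl1 (−0.098) did not turn. With the cell names they turned to 0.073 (Ror2), 0.24 (Vangl1), −0.45 (Vangl2), and 0.53 (Wnt4). Vangl1 was 0.092 with the replicate block and 0.19 with the animal number series. Injury values turned with the cell names to 0.12 (Ryk), −0.14 (Ror2), 0.12 (Vangl2), and 0.049 (Rac1), and without the 4 libraries to 0.071 (Ryk) and 0.14 (Vangl2), against −0.031 and 0.10 in the same conditions with all libraries. Ryk was 0.0020 in WT mice alone, and Ror1 was 0.042 with the replicate block and 0.37 with the animal number series. The replicate block changed no other direction or call of a member.

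With 1 mouse left out, genotype values ranged from −0.81 to −0.086 (Ryk), −0.12 to 0.064 (Vangl1, highest without cKO 1 d replicate 2; 0.02 without WT 14 d replicate 1), −0.27 to 1.86 (Vangl2, lowest without cKO 1 d replicate 2), and −1.45 to 0.49 (Wnt4, highest without WT 7 d replicate 1; 0.04 without cKO 7 d replicate 2). Injury values ranged from −0.40 to 0.34 (Ryk), −0.59 to 1.19 (Ror1), −0.064 to 0.32 (Ror2, lowest without cKO uninjured replicate 2), and −0.74 to 3.29 (Dvl3, lowest without cKO 1 d replicate 2). Among values that kept their direction, ranges were −2.09 to −0.31 (Gipc1), 1.26 to 3.00 (Fzd6), and −0.79 to −0.23 (Dvl1) for genotype, and −1.64 to −0.15 (Scrib), −0.81 to −0.053 (Rac1), 0.18 to 1.12 (Vangl1), −1.96 to −0.70 (Vangl2), 2.18 to 3.98 (Wnt4), and 0.13 to 0.71 (Sec24b) for injury. Without WT 1 d replicate 1 alone no value over all 3 time points was possible, since WT at 1 d was 1 mouse, and these 3 clusters could not be fitted after thinning. Depth limits the values of sparse genes. In Cluster 7, 1 UMI was 28.0 CPM in cKO 7 d replicate 1 and 36.1 CPM in cKO 1 d replicate 1. In Schwann cells of 1 shallow library, 1 UMI of Ryk was 244 CPM.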
